A study of Homo sapiens with 12 samples.

Results

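Cohesin sites that were called after combined loss of WAPL and SCC4, and in no other genotype, are described here. The peak lists of the cohesin subunit SMC1 from the 4 genotypes were merged wherever intervals overlapped by at least 1 bp, which gave 38018 regions. Of these, 2628 held a peak in ΔWAPL/ΔSCC4 cells and in no other genotype, which is 6.91% of all SMC1 regions and 9.93% of the 26468 regions with a ΔWAPL/ΔSCC4 peak. The regions were thus chosen by the SMC1 peak calls, and their number and their SMC1 values are a description and carry no test.

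The study profiled HAP1 cells, a near-haploid human line derived from a chronic myeloid leukemia whose parental cells carry a mutant p53. It used ChIP-seq, in which DNA bound by a protein is enriched with an antibody and sequenced, for SMC1, for the DNA-binding factor CTCF and with a non-specific IgG. The groups were Hap1 WT (wild-type), WaplKO_3.3 (ΔWAPL, a clone with a Blasticidin resistance cassette inserted at WAPL by CRISPR), SCC4KO (ΔSCC4, a clone with a Puromycin cassette at SCC4) and WaplKO_3.3/SCC4KO (ΔWAPL/ΔSCC4, made by deleting SCC4 in the ΔWAPL clone). There was 1 library per genotype and antibody, 12 in all, so clone and genotype cannot be told apart and no difference between genotypes could be tested.

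Cohesin is a ring of SMC1, SMC3 and SCC1 with a STAG subunit that entraps DNA and holds chromatin loops. SCC4, encoded by MAU2, works with SCC2, encoded by NIPBL, to load the ring onto DNA, whereas WAPL opens it for release. CTCF binds an oriented sequence motif, and cohesin is commonly found where CTCF is bound, with loops mostly joining motifs that point towards each other. Cells without WAPL retain cohesin on DNA, cells without SCC4 carry less of it there, and the ΔWAPL/ΔSCC4 cells lack both proteins.

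The sequences under the strongest of these regions show what the CTCF motif looked like in them. A 19-bp motif with the consensus TGGCCACCAGGGGGCGCTG was learned from wild-type CTCF summits, the points of highest signal, and a match was a score of at least 6.05 of a possible 26.6, a limit that 5% of flanking windows reached. Each line below gives the motif in capitals in the orientation of the consensus, 5′ to 3′ on the strand named, for the strongest region with a match in 5 of the 6 classes of CTCF binding (GRCh37). The flanking bases are omitted where they include exon bases of a protein-coding gene outside its coding part.
CTCF in all 4 genotypes, chr2:184159923-184159981, plus strand, score 14.3: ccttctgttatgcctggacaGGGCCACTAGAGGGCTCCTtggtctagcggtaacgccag
CTCF in ΔWAPL/ΔSCC4 and 1 or 2 others, chr14:94879472-94879530, minus strand, score 13.9: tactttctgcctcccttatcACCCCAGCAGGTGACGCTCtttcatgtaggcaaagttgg
CTCF not in ΔWAPL/ΔSCC4 but in another genotype, exon of the lncRNA ENSG00000273450 within PLCE1, chr10:96074822-96074880, minus strand, score 9.41: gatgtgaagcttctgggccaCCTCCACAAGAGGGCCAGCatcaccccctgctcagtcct
no CTCF peak, start site of NUDT9, chr4:88343813-88343831, minus strand, score 9.08: AGACCAGCACGTGACGCCG
no CTCF peak, intron of ALK, chr2:29516925-29516983, plus strand, score 7.45: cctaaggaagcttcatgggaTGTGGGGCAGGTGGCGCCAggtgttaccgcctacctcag
The strongest regions outside exons without CTCF and without a motif match, shown as the 100 bases around the summit, were the following.
near the start site of C4orf51, chr4:146654084-146654183, plus strand, best score 4.98: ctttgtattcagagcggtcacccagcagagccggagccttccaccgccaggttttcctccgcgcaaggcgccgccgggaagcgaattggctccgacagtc
intergenic, nearest protein-coding start SPAG9, chr17:49008490-49008589, plus strand, best score 1.30: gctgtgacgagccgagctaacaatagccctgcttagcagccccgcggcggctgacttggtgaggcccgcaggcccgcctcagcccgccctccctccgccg

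The SMC1 peaks found only in ΔWAPL/ΔSCC4 cells were weak peaks of their list. The fold enrichment over local background had a median of 4.85 (quartiles 4.31 and 5.50), against 6.58 (5.28 and 8.29) at the 23840 ΔWAPL/ΔSCC4 regions shared with another genotype. The median −log10 q was 5.34, against 11.4 at the shared regions. The median summit pileup, recovered from the deposited scores, was 14 reads over a background of 2.00 reads, and 23 reads over 2.54 at the shared regions. Ranked within the ΔWAPL/ΔSCC4 list, the median region stood at percentile 16.9, whereas the shared regions stood at 54.7. A −log10 q of at least 10 was reached by 166 of the 2628, or 6.32%, against 57.3% of the shared regions, and 1 lay in the strongest 10% of the list.

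**Figure D1:**
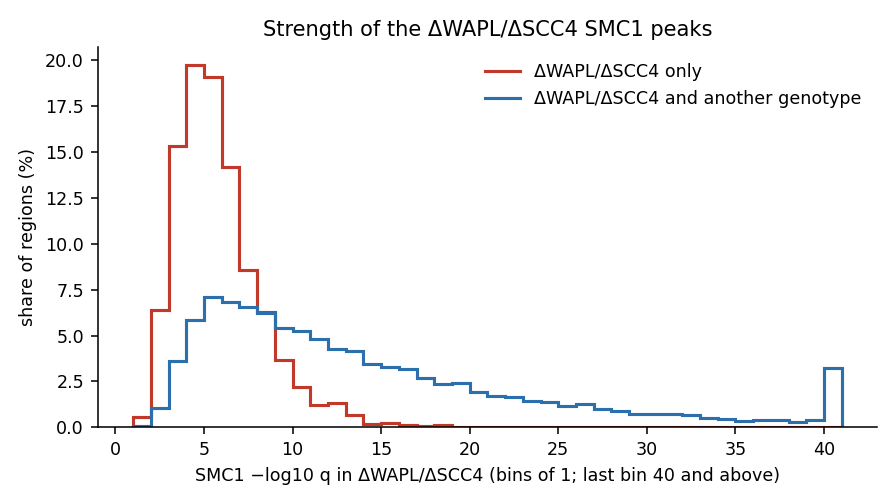
Distribution of the SMC1 −log10 q in ΔWAPL/ΔSCC4 cells (x axis, bins of 1, values of 40 and above pooled) as the share of regions (y axis, percent), for regions found in ΔWAPL/ΔSCC4 only (red) and for those shared with another genotype (blue). The red distribution has its median at 5.34 and the blue one at 11.4.

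The nearest SMC1 peak of any other genotype was a median of 25463 bp away (quartiles 8951 and 70017). The next peak of the ΔWAPL/ΔSCC4 list itself, which held 26558 peaks, was at a median of 35744 bp, and 3.46% of the regions had one within 1 kb. The first of these medians pools the lists of all other genotypes, so it does not compare like with like. By genotype the median distance was 56815 bp in wild-type, 26601 bp in ΔWAPL and 76461 bp in ΔSCC4 cells, the order of list lengths reversed, since those lists held 18542, 33952 and 12779 peaks. Within 1 kb of another genotype's peak lay 197 regions, or 7.5%, and 189 of the 2628 had a ΔWAPL peak that near. At the limit of the rule, the region at EEA1 adjoined a ΔWAPL peak with no shared base (fold enrichment 3.51), and those at EEF1AKMT1 and ENSG00000255910 were 2 and 3 bp from one (3.85 and 4.03). Just outside it, regions at FZD9, DTNBP1 and PDK4-AS1 overlapped a ΔWAPL peak by 1, 3 and 5 bp, with fold enrichments of 3.71, 4.69 and 3.76.

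Absence from a list was set against what that list could call. The average SMC1 pileup was lowest in ΔWAPL/ΔSCC4 cells with 1.54 reads, against 1.58 in wild-type, 1.59 in ΔWAPL and 1.67 in ΔSCC4 cells. With the summit pileup and background of each region scaled to another library, the recomputed −log10 p reached that of the weakest listed peak at 99.96% of the regions for wild-type, 100% for ΔWAPL and 98.9% for ΔSCC4. Against the 5th percentile of each list the shares were 77.7%, 84.1% and 81.6%, and against the 25th percentile 30.9%, 32.6% and 44.1%. The regions were chosen for passing the ΔWAPL/ΔSCC4 limit, at a lowest −log10 p of 3.79 against 4.09, 3.73 and 4.35 in the other lists, so the shares against the weakest peak are nearly fixed by that choice. Signal below a list's call limit was not measured here.

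CTCF, whose libraries did not enter the rule, was called at most of these regions. A CTCF peak of ΔWAPL/ΔSCC4 cells overlapped 2128 of the 2628 regions, or 81.0% (95% Wilson interval 79.4 to 82.4%, which like all intervals here covers counting over regions only). That share was near the background of 81% over all SMC1 regions, but below the 95.1% at the 23840 ΔWAPL/ΔSCC4 regions shared with another genotype. It was lower than at the 6108 regions found in ΔWAPL and ΔWAPL/ΔSCC4 only (87.8%), with a difference of -6.83 percentage points (95% Newcombe interval -8.57 to -5.15). It was above the 48.7% at the 9238 regions found in ΔWAPL only, by 32.3 points (30.4 to 34.1). At the 10707 regions found in all 4 genotypes the share was 99.1%.

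A CTCF peak in every genotype was present at 1544 regions, or 58.8% (56.9 to 60.6%), against a background of 72% over all SMC1 regions. So at most of these regions CTCF was called in all 4 genotypes while SMC1 was called in ΔWAPL/ΔSCC4 alone. The share was 72.7% at the regions found in ΔWAPL and ΔWAPL/ΔSCC4 only, a difference of -13.9 points (-16.1 to -11.8), and 98.4% at those found in all 4. It was 32.9% at regions found in ΔWAPL only, 42.3% at the 593 found in wild-type only and 30.3% at the 238 found in ΔSCC4 only. No CTCF peak of any genotype overlapped 449 regions, or 17.1%, near the background of 16.6%.

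**Figure D2:**
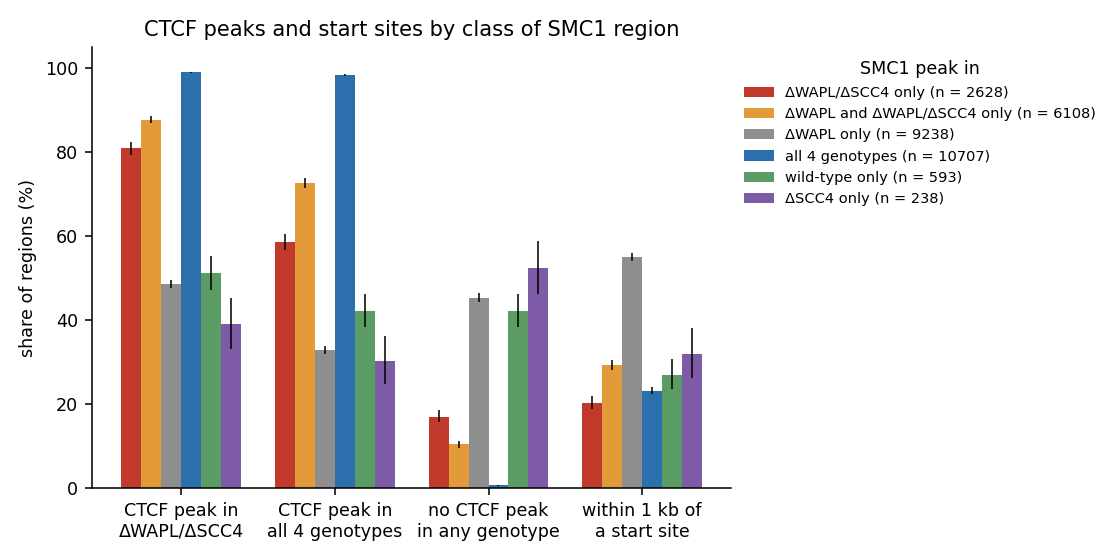
Share of SMC1 regions (y axis, percent, bars with 95% Wilson intervals) with a CTCF peak in ΔWAPL/ΔSCC4, a CTCF peak in all 4 genotypes, no CTCF peak, or a summit within 1 kb of a transcription start site, for 6 classes of region by the genotypes with an SMC1 peak. Regions found in ΔWAPL/ΔSCC4 only (red) reach 58.8% for CTCF in all 4 genotypes, between 32.9% for ΔWAPL only (grey) and 72.7% for ΔWAPL and ΔWAPL/ΔSCC4 (orange).

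The CTCF calls themselves differed at some regions. At 128 regions, or 4.87% (4.11 to 5.76%), the CTCF peak too was found in ΔWAPL/ΔSCC4 only, against 1.17% of all SMC1 regions. The difference from the regions found in ΔWAPL and ΔWAPL/ΔSCC4 only, of which 52 had such a CTCF peak, was 4.02 points (3.22 to 4.93). Over all CTCF regions, 3816 of 53945, or 7.07%, had a peak in ΔWAPL/ΔSCC4 only, and 124 of these overlapped one of the 2628. At 523 regions CTCF was called in ΔWAPL/ΔSCC4 but not in ΔSCC4 cells, and at 12 the reverse held. The same counts were 298 and 23 against wild-type, and 191 and 36 against ΔWAPL. CTCF was called at 81.0% of these regions in ΔWAPL/ΔSCC4, 70.5% in wild-type, 75.1% in ΔWAPL and 61.5% in ΔSCC4 cells. Over all SMC1 regions the shares were 81.0, 77.8, 80.7 and 73.3% in that order. The ΔWAPL/ΔSCC4 CTCF list was the longest with 47608 peaks, and the ΔSCC4 list the shortest with 37625. The part of list length in these counts was not tested.

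The level of CTCF was compared where it was called in all 4 genotypes. The 1554 CTCF regions concerned had a median fold enrichment of 11.3 (quartiles 9.19 and 13.8) in ΔWAPL/ΔSCC4, 11.4 (8.59 and 14.4) in wild-type, 11.2 (8.80 and 14.1) in ΔWAPL and 9.74 (7.26 and 13.1) in ΔSCC4 cells. The quartile ranges of all 4 libraries overlapped, but they show the spread between regions. Ratios taken at each region compare the libraries directly. The median ratio of ΔWAPL/ΔSCC4 to wild-type was 0.983, and the ratio was above 1 at 725 regions, or 46.7%. Over all 34622 CTCF regions found in the 4 genotypes, the median was 0.941 and 36.1% were above 1, so relative to the whole library the regions stood 1.04-fold higher. The ratio to ΔWAPL was 0.988 against 0.992 overall (47.3% of the regions above 1, against 48.1%), and to ΔSCC4 1.11 against 1.06 (67.2% against 61.3%). The class with SMC1 in ΔWAPL and ΔWAPL/ΔSCC4 only was alike, at 0.982 to wild-type (46.8% above 1), 0.989 to ΔWAPL and 1.14 to ΔSCC4. These ratios depended on the scale. By summit pileup over the library average, the ratio to ΔWAPL was 1.07 at the regions (61.3% above 1) and 1.12 overall (69.5%), so its direction turned. On that scale the ratio to wild-type was 0.958 against 0.911 over all CTCF regions, and that to ΔSCC4 1.19 against 1.14.

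That offset of the CTCF ratio was uneven over CTCF strength. Sorted by mean CTCF fold enrichment into 4 bins of equal size, the median ratio to wild-type in the weakest of the 4 bins was 1.09 at the 536 regions in it and 1.00 at the rest. In the bins between, from weaker to stronger, it was 0.974 at 599 regions against 0.960 at the rest, and 0.919 at 333 against 0.922. In the strongest bin it was 0.889 at 86 regions and 0.916 at the rest. The 4 bins held 34.5, 38.5, 21.4 and 5.53% of the regions, from the weakest to the strongest. In level, CTCF at the regions stood between CTCF sites without any SMC1 peak (wild-type median 8.87) and those with SMC1 in ΔWAPL and ΔWAPL/ΔSCC4 only (13.1) or in all 4 genotypes (18.8).

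**Figure D3:**
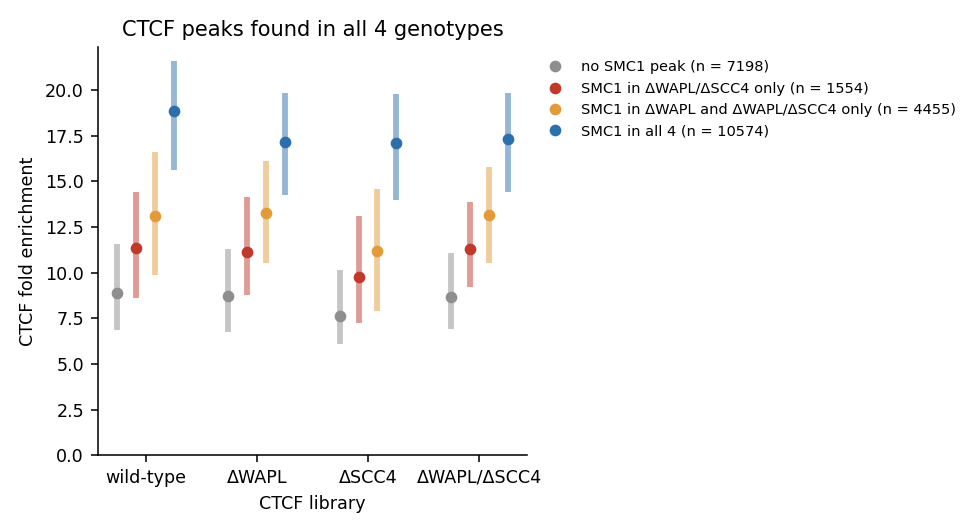
Median CTCF fold enrichment (y axis, points; bars span the quartiles) in each of the 4 CTCF libraries (x axis) at CTCF peaks found in all 4 genotypes, split by the genotypes with an SMC1 peak there. Peaks at regions with SMC1 in ΔWAPL/ΔSCC4 only (red) have medians from 9.74 to 11.4, below the all-genotype class (blue, 17.1 to 18.8) and above peaks without SMC1 (grey, 7.65 to 8.87).

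The widest differences in CTCF were found at a few regions. The region at chr2:184159747-184160146, in an intron of the long non-coding RNA ENSG00000287621, was the strongest of all, with 38 reads at the SMC1 summit over a background of 2.61 (fold enrichment 10.8, −log10 q 27.2). CTCF fold enrichment there was 20.1 in ΔWAPL/ΔSCC4 cells and 8.13 in wild-type, 4.55 in ΔWAPL and 5.41 in ΔSCC4 cells, a ratio of 2.47 to wild-type. The value in ΔWAPL/ΔSCC4 stood apart from the other 3. The nearest SMC1 peak was 61629 bp away in ΔWAPL and 256447 bp away in wild-type.
Higher ratios were found at intergenic regions. At chr18:72160850-72161140, nearest to CNDP2, CTCF was 14.6 in ΔWAPL/ΔSCC4, against 5.25 in wild-type, 11 in ΔWAPL and 6.4 in ΔSCC4 (ratio 2.78). At chr12:47701588-47701885, nearest to PCED1B, it was 15.1, against 5.62, 13.9 and 9.61 in that order (ratio 2.68). At both, the ΔWAPL value was nearer to ΔWAPL/ΔSCC4 than to wild-type. Among the lowest ratios were those at TMEM38B, which encodes an intracellular cation channel (7.01 against 14.2, 12.9 and 12, ratio 0.492) and at MAD2L1-DT beside the spindle checkpoint gene MAD2L1 (7.18 against 13.4, 12.1 and 11.8, ratio 0.535).

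Several of the strongest regions with CTCF in all 4 genotypes were intergenic, at varied distances from protein-coding genes. An intergenic region at chr13:89719122-89719531, 1394450 bp from the start of SLITRK5, a neuronal transmembrane protein, had 30 reads over 1.95 (−log10 q 22). Its CTCF fold enrichment was 16.5 in ΔWAPL/ΔSCC4 cells, against 17 in wild-type, 20.8 in ΔWAPL and 7.64 in ΔSCC4 cells, the lowest. No SMC1 peak of another genotype lay within 628471 bp. A region at chr2:19065378-19065723, nearest to NT5C1B, had 30 reads over 2.38, with CTCF at 15.8 against 14.1, 18.0 and 7.91 in the same order, again lowest in ΔSCC4. At chr3:189666193-189666608, 15501 bp from P3H2, a collagen prolyl hydroxylase, 32 reads stood over 3.02 and CTCF was 11.1 against 8.75, 10.3 and 10.3.

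Of the regions whose CTCF peak was found in ΔWAPL/ΔSCC4 only, those with the strongest SMC1 peaks included regions 4307 bp from NAV2 (−log10 q 13, CTCF fold enrichment 4.96), 51680 bp from the Piwi gene PIWIL1 (12.2 and 11.9) and near the keratin-associated KRTAP7-1 (9.95 and 4.05). The region near PIWIL1 had CTCF above the median of 11.3 given above, and the other two lay under it.
Among regions with CTCF in ΔWAPL/ΔSCC4 and 1 or 2 others, 3 of the 4 strongest lacked the ΔSCC4 call. So did most of the 456 regions of this class. CTCF was called in all but ΔSCC4 at 232, in ΔWAPL and ΔWAPL/ΔSCC4 alone at 126, and in wild-type and ΔWAPL/ΔSCC4 alone at 37. Over all SMC1 regions too, CTCF was least often called in ΔSCC4 cells, at 73.3%, against 77.8% in wild-type and 80.7% in ΔWAPL. The ΔSCC4 CTCF list was also the shortest, with 37625 peaks. These patterns were not counted over all SMC1 regions, so the missing call is not shown to be particular to this class. At ENSG00000289541, 22455 bp from the serpin gene SERPINA1, CTCF was 12.1 in ΔWAPL/ΔSCC4, 5.73 in wild-type and 6.08 in ΔWAPL cells, and it was not called in ΔSCC4. Near PABPC5 on chromosome X the values were 10.4, 9.12 and 8.86 in that order, and at CCDC144NL-AS1 9.86, 4.80 and 8.44, again with no ΔSCC4 call. Near FGD2 the wild-type call was the missing one.
CTCF was called in another genotype and not in ΔWAPL/ΔSCC4 at 51 regions, or 1.94%. Over all SMC1 regions, 81.0% had a ΔWAPL/ΔSCC4 CTCF peak and 16.6% had none in any genotype, leaving a similarly small share. The strongest of the 51 lay in a coding exon of FKBP1C, with 25 reads over 1.54 and a CTCF fold enrichment of 5.09 in wild-type alone. Others were near FOXB1, in PLCE1 and in MLF1.

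Fewer of these regions lay at transcription start sites than in the 5 other classes compared. Within 1 kb of an annotated start were 535 of 2628, or 20.4% (18.9 to 21.9%), against 32.8% of all SMC1 regions. The share was 29.4% at regions found in ΔWAPL and ΔWAPL/ΔSCC4 only, a difference of -9.01 points (-10.9 to -7.07), 55.0% at regions found in ΔWAPL only and 23.3% at those found in all 4 genotypes, where the difference was -2.92 points (-4.62 to -1.15). It was 27.0% at regions found in wild-type only and 31.9% at those found in ΔSCC4 only. At CTCF peaks of ΔWAPL/ΔSCC4 cells, 11.1% were near a start, against 20.8% in the class shared with ΔWAPL. Without CTCF, 289 of 449 were near a start, or 64.4% (59.8 to 68.7%), against 93.9% in the class shared with ΔWAPL, a difference of -29.5 points (-34.3 to -24.7), and 82.2% over all SMC1 regions without CTCF. It was higher than at regions without CTCF found in wild-type only (43.4%, difference 20.9 points, 13.3 to 28.3) or in ΔSCC4 only (43.2%, difference 21.2 points, 11.3 to 30.6).

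The regions without CTCF fell into a start-site group and a distal group. The 289 near a start had a median −log10 q of 4.14 and a median GC content of 71.5% over the 200 bp at the summit. The strongest were at NUDT9, an ADP-ribose hydrolase (19 reads over 2.18), SNED1 (16 over 1.54), C4orf51 (17 over 1.84) and APLN, which encodes the peptide hormone apelin (18 over 2.13). The 160 distal ones had a median −log10 q of 4.20 and a local GC content of 45.0%. Among them 1 stood apart: at chr3:160150913-160151176, in a coding exon of SMC4, a subunit of the condensin complexes, 34 reads stood over 2.43 (−log10 q 23.7). The next distal regions, near SPAG9, in DRAIC and in ALK, a receptor tyrosine kinase, had values of 8.54, 8.05 and 7.93. IgG peaks overlapped 8 of the 2628 regions, or 0.304%, against 1.15% of all SMC1 regions. The share was lower still in the class shared with ΔWAPL, at 0.0655% (difference 0.239 points, 0.0570 to 0.537), and for ΔWAPL only, at 0.119%. It was higher for all 4 genotypes (2.67%), wild-type only (2.87%) and ΔSCC4 only (7.98%).

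The CTCF motif was less often found at these summits than at those of regions shared between genotypes. Within 50 bp of the summit, on even chromosomes, which did not train the motif, 600 of 1283 regions had a match, or 46.8% (44 to 49.5%), against 60.4% of all SMC1 regions. The share was 60% in the class shared with ΔWAPL (difference -13.2 points, -16.5 to -9.93) and 77.1% at regions found in all 4 genotypes. It was 43.9% at regions found in ΔWAPL only (difference 2.87 points, -0.241 to 5.99), 34.1% in wild-type only (12.6 points, 6 to 18.8) and 31.9% in ΔSCC4 only (14.9 points, 5.44 to 23.2). With CTCF in all 4 genotypes, it was 52% against 64.5% in the class shared with ΔWAPL and 77.8% in the class of all 4. The classes of 1 other genotype then had 59.7% (ΔWAPL), 53.4% (wild-type) and 52.6% (ΔSCC4). Without any CTCF peak, 48 of 215 regions had a match, or 22.3%, and a match in these letters does not show binding. Over all chromosomes, including those that trained the motif, the share by class of CTCF binding ran from 16.9% at distal regions without CTCF to 52.6% at those with CTCF in ΔWAPL/ΔSCC4 and 1 or 2 others.

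The matches showed no preferred side for the SMC1 summit. For matches within 100 bp, the summit lay a median of 2 bp downstream of the motif's middle at 1185 regions, and 51.3% (48.5 to 54.1%) were downstream of it. The motif orientation was also read against the next ΔWAPL/ΔSCC4 region with CTCF and a match in the direction of the consensus as written above. That neighbour's motif pointed back at 626 of 1107 regions, or 56.5% (53.6 to 59.4%), at a median distance of 148174 bp. The share was 47.9% in the class shared with ΔWAPL, with a difference of 8.63 points (5.24 to 12), and 54.9% at regions found in all 4 genotypes, with a difference of 1.65 points (-1.47 to 4.74). When the 4 lists were cut to equal length, the share was 53.6%, against 53.4% at the other ΔWAPL/ΔSCC4 regions.

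Differences were also seen between regions of similar SMC1 −log10 q. At a −log10 q of 6 to 10, CTCF in all 4 genotypes was found at 67.7% (64.5 to 70.8%) of 858 regions, against 88.3% (87.4 to 89.1%) of the 5972 shared ones. In that range 14.8% (12.6 to 17.3%) against 22.8% (21.7 to 23.9%) were near a start, and 54.6% (49.9 to 59.3%) against 63.3% (61.5 to 65.1%) had a motif match. The intervals of the motif share overlapped at a −log10 q of 4 to 6, with 48% (43.6 to 52.4%) against 50.9% (48.3 to 53.5%). At a −log10 q of 10 or more the 166 regions had CTCF in all 4 genotypes in 79.5%, against 97.2%. A ΔWAPL/ΔSCC4 CTCF peak was found at 98.2% (94.8 to 99.4%), against 99.5% (99.4 to 99.6%), where the intervals overlapped too. This last range is wide, and the shared regions in it reached higher values. A −log10 q of at least 20 was found at 0.114% of all regions found in ΔWAPL/ΔSCC4 only, against 21.4% of all shared ones. So the sets were not of similar strength in that range.

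The surroundings of the regions were poorer in GC and in genes than those of most other classes. In the 100 kb around the summit, GC content was under 38% at 819 regions, or 31.2% (29.4 to 33.0%), against 18.5% in the class shared with ΔWAPL (difference 12.6 points, 10.6 to 14.7), 13.2% for ΔWAPL only, 12.9% for all 4 genotypes and 16.2% over all SMC1 regions. The start of the nearest protein-coding gene was over 100 kb away at 26.7%, against 16.8%, 9.86% and 13.9% in those classes and 14.5% over all. Regions found in ΔSCC4 only did not follow this, with 28.2% under 38% GC (difference 3.01 points, -3.26 to 8.64) and 32.8% that far from a start. Summits were in introns at 51.1% (46.5% over all SMC1 regions), between genes at 37.1% (34.3%) and in exons at 11.8% (19.2%), and 9.78% (6.69%) lay in genes longer than 500 kb. The highest counts were in such genes. MARCHF1, a ubiquitin ligase, held 6 among 11 ΔWAPL/ΔSCC4 SMC1 regions, and PDE4D, a cAMP phosphodiesterase, 6 among 14. ESRRG, an orphan nuclear receptor, held 4 among 5 and ENSG00000287722 4 among 7.

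Of the ΔWAPL/ΔSCC4 SMC1 regions in the most GC-poor surroundings (30 to 36% GC), 21.6% (19.6 to 23.7%) were found in no other genotype. The share fell through 16.1%, 12.7%, 9.90% and 6.21% to 4.45% (3.93 to 5.04%) at 48 to 70% GC. Between the ends of this range the intervals did not overlap. The background of the SMC1 libraries moved with GC too. At regions found in all 4 genotypes, it rose from the lowest to the highest GC from 1.62 to 1.87 times the library average in ΔWAPL/ΔSCC4, from 1.21 to 1.66 in wild-type, from 1.5 to 2.68 in ΔWAPL and from 1.26 to 1.47 in ΔSCC4 cells. The ΔWAPL/ΔSCC4 background was the highest of the 4 below 40% GC, and ΔWAPL was the highest above it. The part of this background in the shares was not tested.

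**Figure D4:**
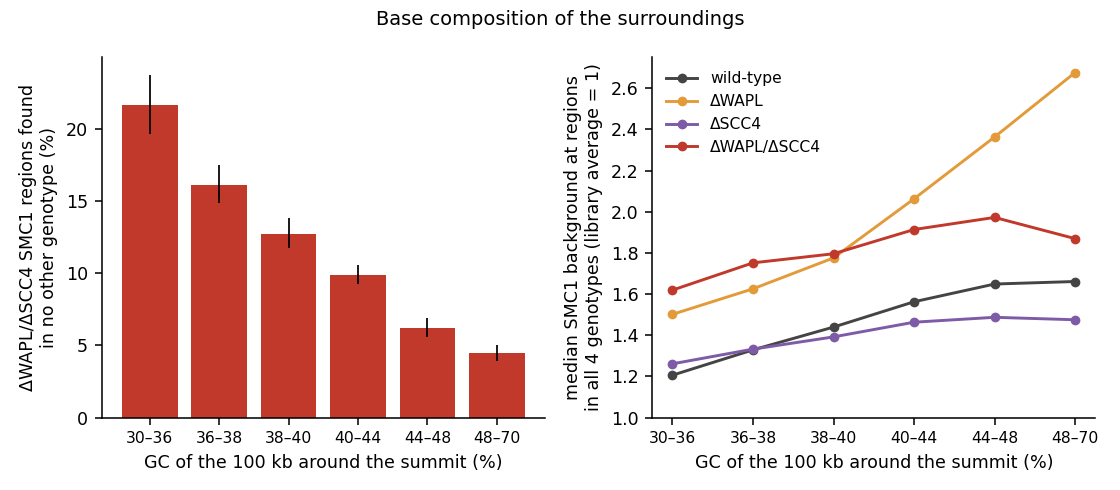
Left, share of ΔWAPL/ΔSCC4 SMC1 regions found in no other genotype (y axis, percent, bars with 95% Wilson intervals) by GC content of the surrounding 100 kb (x axis, percent). Right, median SMC1 background at regions found in all 4 genotypes, relative to the library average, in the same bins. The share falls from 21.6% to 4.45%, and the background rises most in ΔWAPL, from 1.5 to 2.68.

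The same order was seen over chromosomes. The regions made up 17.8% (15.1 to 20.8%) of the ΔWAPL/ΔSCC4 SMC1 regions on chromosome 13, 15.3% on chromosome 4 and 12.2% on chromosome X. They made up 4.99% (3.32 to 7.44%) on chromosome 22, 6.34% on chromosome 11 and 6.37% on chromosome 19. Across the 23 chromosomes, Pearson's r between this share and chromosome GC content was -0.801 and Spearman's rho -0.913, given as a description because all points share the same libraries and base composition differs along each chromosome. Chromosome 2 held the most regions, 238. Of the 1 Mb windows with any, 943 held 1, and the fullest held 6, at chr3:160000001-161000000 with ARL14, SMC4, TRIM59, PPM1L and NMD3. The 6 regions of that window were part of 11 ΔWAPL/ΔSCC4 SMC1 regions there.

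**Figure D5:**
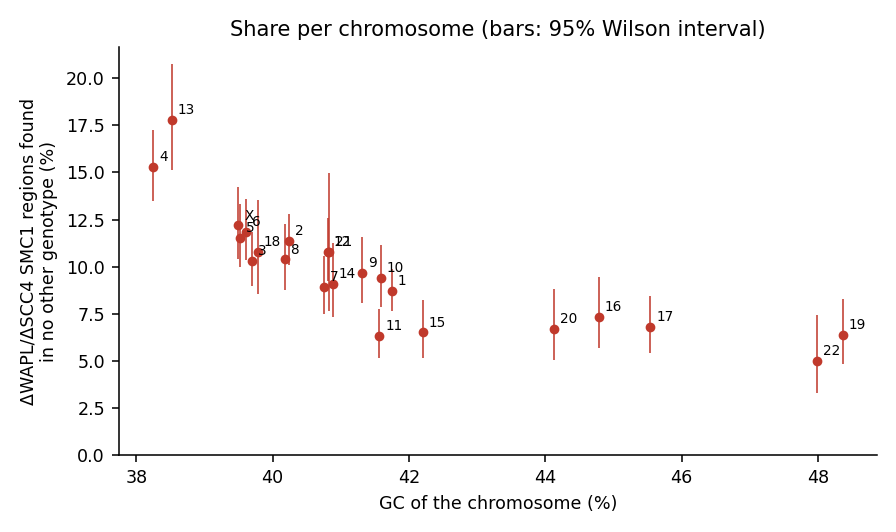
Share of ΔWAPL/ΔSCC4 SMC1 regions found in no other genotype (y axis, percent, with 95% Wilson intervals) against the GC content of each chromosome (x axis, percent), chromosomes 1 to 22 and X. Chromosomes 13 and 4 stand highest at 17.8% and 15.3%, and chromosome 22 lowest at 4.99%.

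Genes of the cohesin machinery held such regions at a share near the background. Of 26 genes for cohesin subunits, loaders, release factors and regulators, 13 held a ΔWAPL/ΔSCC4 SMC1 region and 2 held one found in no other genotype. These were 2 of their 25 ΔWAPL/ΔSCC4 regions, or 8% (2.22 to 25%), against 9.93% of all ΔWAPL/ΔSCC4 regions. In STAG2, which encodes a cohesin subunit, an intronic region 4771 bp from a start had 15 reads over 1.82, was 1 of 5 ΔWAPL/ΔSCC4 regions in the gene and had CTCF at 15.3 in ΔWAPL/ΔSCC4, 16.8 in wild-type, 16.8 in ΔWAPL and 15.9 in ΔSCC4 cells. In NIPBL, which encodes SCC2, an intronic region had 13 reads over 1.54, was 1 of 2 and had CTCF at 12.3, 15.1, 12.7 and 10.1 in that order. Both held a motif match and CTCF in every genotype. WAPL held no ΔWAPL/ΔSCC4 SMC1 region, MAU2 held 1 that was shared, and at NCAM2, a neural adhesion gene, all 5 were shared.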

How the data were processed

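SMC1, CTCF and IgG ChIP-seq of 4 HAP1 genotypes was analysed, with 1 library per genotype and antibody. Per the methods, the authors mapped single-end reads to hg19 with Bowtie2 and called peaks with MACS2 2.1.1 (version as in the submitters' processing notes). The deposited peak lists give intervals, summits, a linear fold enrichment (a ratio to local background) and −log10 p-value and −log10 q-value, each from 1 library. The methods name IgG as control. However, the backgrounds recovered here were whole numbers of reads per 10 kb (tolerance 0.05) in 100% of peaks above the floor, and in 6.29 to 13.1% when the fragment length was set 3 bp off, so a scaled IgG background was not seen in the values.

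Summit pileup and background were solved from the fold enrichment and −log10 p, and were recovered for every SMC1 and CTCF peak. Depth was 6.79 to 8.41 reads per kb in SMC1, 6.53 to 8.41 in CTCF and 5.43 to 9.05 in IgG libraries, whose low reads per region limit the precision. Start sites and exons came from GENCODE 44 lifted to GRCh37, the same build as hg19. The motif was learned from the 1000 strongest wild-type CTCF summits of odd chromosomes and its limit set on windows 1000 bp from summits of even ones. Shares have 95% Wilson and differences Newcombe intervals. With 1 library per group, no test between genotypes was made. Named regions were the 4 of highest −log10 q outside chromosome 8 and IgG peaks in each of 6 CTCF classes, those at cohesin genes, at the limit of the rule and at the ends of the CTCF ratio, and the fullest chromosome and windows. Where a named summit lies in several genes, or a count of 5 or fewer is given, names were added after the values were seen. Presence and absence refer to the deposited lists, whose lengths depend on their call limits, and lists called otherwise were not used here. Some regions that this rule names are not reported here. Members and lists were chosen with earlier results of these data known. Alternatives changed the peak limits, list lengths, depth, merging distance, overlap, start-site distance and motif limit. The scripts were tested on simulated data. Python 3.11.15, numpy 2.4.6, pandas 2.3.3, scipy 1.17.1, pysam 0.24.0 and matplotlib 3.10.9 were used.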

Additional observations from a re-analysis of the deposited data

How the results depend on the processing

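Peak limits moved most values, and the sets of regions changed with them. A −log10 q of at least 5 or 10 in all 4 SMC1 lists, the same 2 limits in the ΔWAPL/ΔSCC4 list alone, a fold enrichment of at least 5, lists cut to equal length, and lists scaled to the shallowest depth left 2265, 1545, 1525, 166, 2248, 1176 and 2682 regions. Of these, 1525, 166, 1525, 166, 1155, 123 and 1369 overlapped the 2628. In that order of settings, the share at a ΔWAPL/ΔSCC4 CTCF peak was 89.9, 99.5, 90.4, 98.2, 92.8, 99.1 and 91.5%, and merging intervals up to 500 bp apart gave 84.0%. The other ΔWAPL/ΔSCC4 regions were higher at each of these but the second, where they had 99.5% too. The share with CTCF in all 4 genotypes was 69.9, 91.8, 66.9, 79.5, 75.5, 87.8 and 74.0%, and 61.0% after merging. It stayed below that of the other ΔWAPL/ΔSCC4 regions, which had 90.1 to 98.3%, in each of these. The share near a start was 16.6, 10.6, 14.2, 7.83, 15.8, 12.8 and 16.2%, 17.3% after merging, 16% within 500 bp, 38.4% within 5 kb and 15.8% for protein-coding transcripts. The motif share was 54.7, 71.5, 53.8, 67.1, 59.3, 72.9 and 57.3%, 34.2% with a limit at 1% of flanking windows and 65.1% in a 100 bp window. The share with another genotype's SMC1 peak within 1 kb was 3.71, 1.29, 4.98, 3.01, 2.31, 1.62 and 3.02%, 1.98% after merging, 5.59% within 500 bp and 17% within 5 kb. The ratio of median SMC1 fold enrichment to that of the other regions, 0.738 as deposited, was 0.774, 0.862, 0.782, 0.880, 0.775, 0.877 and 0.778, and 0.468 for −log10 q.

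The relative CTCF ratio to wild-type of 1.04 became 1.00 with −log10 q of at least 10 in all lists, 1.06 with that limit in the ΔWAPL/ΔSCC4 list, 1.021 with a fold enrichment of at least 5 and 1.03 with lists of equal length. The share at IgG peaks was 0.602% in the 166 regions and 0.0850% with lists of equal length. With settings added after the data were seen, the share under 38% GC was 34.1 and 41.6% with the limits of 5 and 10 in the ΔWAPL/ΔSCC4 list and 27.4% with equal lengths, against 13 to 15.5% at the other regions. The share with a facing motif was 61.8% in the 166 regions and 53.6% with equal lengths. The depth comparison gave 100% for wild-type and 99.96% for ΔSCC4 with the genome-wide average as background. Against the 5th percentile of the lists it was 77.7, 84.1 and 81.6% for wild-type, ΔWAPL and ΔSCC4, and 30.9, 32.6 and 44.1% against the 25th. The cause of these moves was not tested. Leaving out IgG peaks or chromosomes other than 1 to 22 and X left the shares within their intervals.

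No paired analysis was possible because each genotype has 1 library per antibody, and for the same reason no library could be left out. At 14 reads for a median summit, regions under a list's call limit in another genotype cannot be told from regions without signal.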
